A study of Glycine max with 14 samples.

Results

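Cotyledons of soybean seedlings (Glycine max, cultivar Williams) at stage 6, taken 5 to 6 days after planting, were set against cotyledons at stage 5, taken 4 to 5 days after planting. The comparison rests on the 4 libraries whose labels name these stages, 2 biological replicates (BR1 and BR2) of each, out of 14 libraries in a course of 7 stages. Both groups came from greenhouse-grown plants, no genotype or treatment separates them, and the labels give the tissue as lyophilized and the RNA as total RNA. The labels do not say how many seedlings made up a replicate. The p-values measure the spread between samples that is left after stage means and a shared difference between BR1 and BR2 are removed. That spread was estimated over the 12 libraries of stages 2 to 7. The RNA is from bulk cotyledons, in which fewer cells of a type and less RNA per cell cannot be told apart.

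Cotyledons are the storage leaves of the soybean embryo. After germination their reserves of protein and oil are broken down to feed the seedling, and in the light they green and begin to fix carbon. Rubisco is the enzyme that fixes carbon dioxide, Rubisco activase keeps it in its active form, and storage globulins, fatty acid desaturases and the enzymes of flavonoid synthesis belong to the other activities of the organ at this age.

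The values are RPKM (reads per kilobase of gene model, scaled to the library's read total), and a log2 change is stage 6 minus stage 5 on the log2(RPKM + 1) scale. A model was called higher or lower at a Benjamini-Hochberg adjusted p under 0.05 in limma and an absolute log2 change of at least 1. The fit held the 12 libraries of stages 2 to 7, with the BR number as a block, and tested 44450 gene models of 35547 loci. The files pair no identifier with a name, and 0 of them matched the RefSeq gene table. Families are therefore described through 13 lists of 68 identifiers put together from general knowledge of published soybean identifiers, and what a list is called is thus assumed of its loci, not shown by these files. For 66 of the 68, the RefSeq table (assembly Glycine_max_v4.0) holds a symbol of the same family on the chromosome in the identifier. Such a symbol could lie anywhere on that chromosome, so the match does not identify the locus. Each list locus stands for its model with the highest mean, and 59 of the 68 loci passed the filter on low values.

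Many RNAs were lower at stage 6 and few were higher when the values were taken as deposited. Limma called 2050 of 44450 models (4.61%), of which 180 were higher (0.405%) and 1870 lower (4.21%), from 140 and 1471 loci. At an unadjusted p under 0.05 stood 33.7% of all tested models, 3.51% higher and 30.2% lower. Over all models tested, the log2 change had a median of -0.27, with -0.23 in BR1 and -0.32 in BR2. After upper quartile scaling, which divides each library by the 75th percentile of its values above 0, that median was -0.057. The calls were then 704 (1.58%), with 293 higher (0.659%) and 411 lower (0.925%). Of the models lower as deposited, 22.0% were also lower after scaling, and each of the 411 lower after scaling was lower as deposited. Of those higher as deposited, 78.9% were also higher after scaling, which left 142 models higher and 411 lower under both.

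The libraries differed in make-up between the stages. The 10 highest models took 14.8% and 13.6% of all RPKM in the BR1 and BR2 libraries of stage 6, against 7.53% and 8.99% at stage 5. The 75th percentile of values above 0 was 6.03 and 5.25 RPKM at stage 6, against 7.32 and 6.74 RPKM at stage 5, and 36203 and 34213 models reached 1 RPKM at stage 6, against 38660 and 37344 at stage 5. Read totals recovered from the values were 110.4 M and 91.9 M at stage 6, against 131 M and 87.4 M at stage 5 (M, 1e6 reads). A run of 52 models from Glyma13g11810 to Glyma13g12210 took 0.566% and 7.81% of reads in BR1 and BR2 at stage 6, against 0.720% and 3.43% at stage 5. The part of these differences in the calls was not tested beyond the scalings given.

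**Figure D1:**
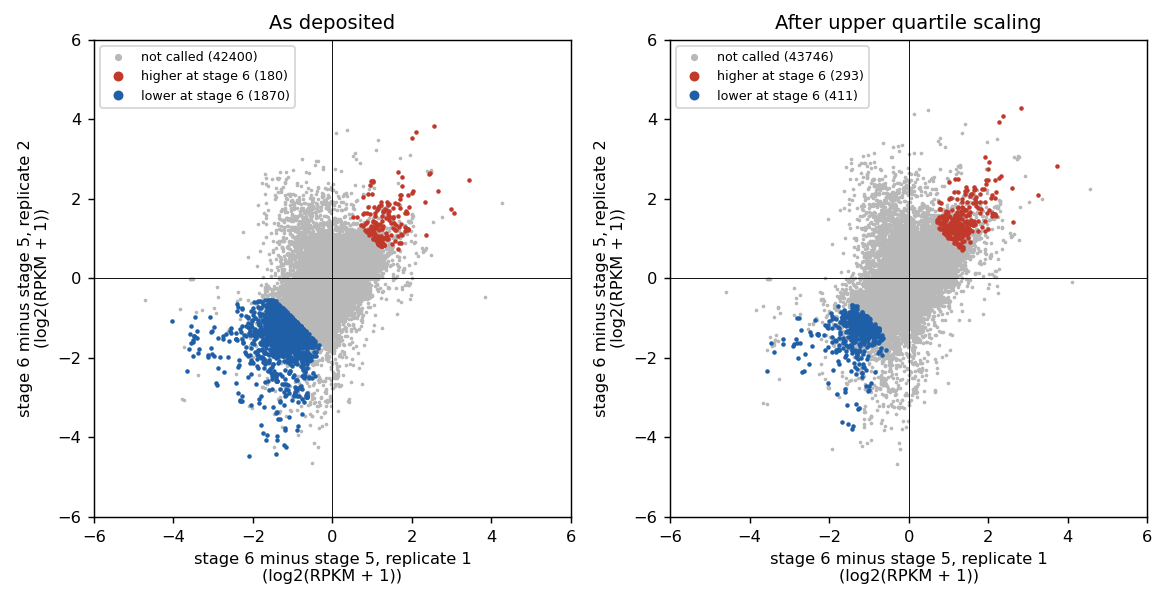
Log2 change of every tested model, stage 6 minus stage 5, in BR1 (horizontal) and BR2 (vertical), as deposited (left) and after upper quartile scaling (right); red models were called higher and blue models lower. As deposited the cloud sits below 0 and 1870 models are blue against 180 red, and after scaling 411 are blue against 293 red.

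As deposited, the median change was below 0 in both BR numbers and in each quartile of abundance. On that scale 1280 models were at least 2-fold lower at stage 6 in both BR numbers, 202 were at least 2-fold higher in both and 113 moved at least 2-fold in opposite directions. With upper quartile scaling these counts were 602, 581 and 82. Across models the BR1 and BR2 changes correlated at 0.50 as deposited and after scaling, as a description of these libraries. By quartile of mean RPKM over the 4 libraries, the median log2 change was -0.20 in the lowest and -0.30 in the highest quartile as deposited. After scaling that order turned, at -0.095 in the lowest and -0.0028 in the highest quartile. The highest quartile held 100 of the 180 higher and 963 of the 1870 lower calls. By quartile of model length the median ran from -0.22 in the shortest models to -0.30 in the longest, and from -0.040 to -0.081 after scaling.

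The models called under both scalings had different courses over the other stages. Their stage medians are of RPKM as deposited, without upper quartile scaling. The 142 models higher at stage 6 (114 loci) had medians of 0.285, 1.07, 0.838, 2.18, 5.10, 14.8 and 24.9 RPKM over stages 1 to 7. Their median log2 change was 1.26 as deposited and 1.56 after scaling. The 411 models lower at stage 6 (331 loci) had medians of 16.9, 20.02, 18.7, 14.2, 11.6, 2.72 and 3.24 RPKM over stages 1 to 7, with a median log2 change of -1.51 as deposited and -1.29 after scaling. The models were chosen on stages 5 and 6, so the step between those stages is fixed by the choice, and the levels at the other stages are a description. Of these models 13 of the 142 and 16 of the 411 reached a mean of 100 RPKM in at least one of the 2 stages.

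**Figure D2:**
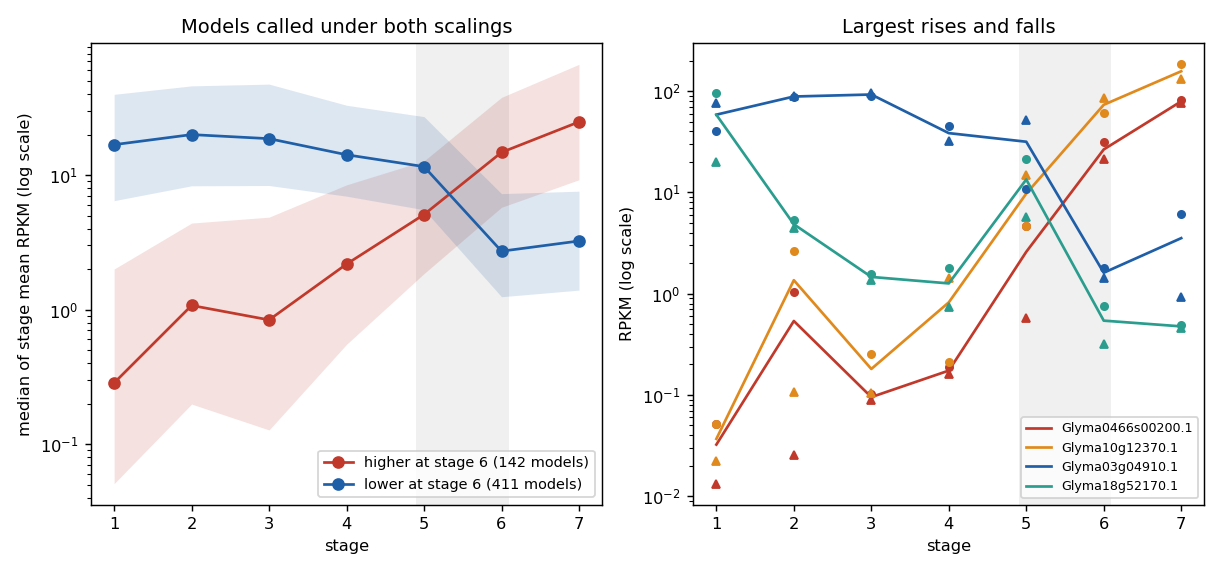
Left, median RPKM as deposited (lines, log scale) and range between the quartiles (bands) over the 7 stages. They are of the 142 models higher and the 411 models lower at stage 6 under both scalings. Right, RPKM of the 2 largest rises and the 2 largest falls, with circles for BR1, triangles for BR2 and lines for stage means; the grey band marks stages 5 and 6.

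The largest rises and falls were of low or middling abundance. Glyma0466s00200.1 was at 31.7 and 21.4 RPKM in the BR1 and BR2 libraries of stage 6, against 4.61 and 0.571 RPKM at stage 5 (log2 change 3.19 ± 0.421 SE, limma adjusted p = 0.0246), and the stages did not overlap. Before stage 5 its stage means lay between 0.0324 and 0.538 RPKM, and it went on to 79.3 RPKM at stage 7. Glyma10g12370.1 was at 60.5 and 86.2 RPKM at stage 6, against 4.64 and 14.8 RPKM at stage 5 (2.95 ± 0.656, limma adjusted p = 0.0367). It too stayed below 2 RPKM in its means of stages 1 to 4 and reached 157 RPKM at stage 7, so for both models the stage 6 level was an intermediate one. The call of Glyma10g12370.1 was lost without any 1 of the 4 compared libraries, and that of Glyma0466s00200.1 without stage 6 BR2.

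Both large falls had been high earlier in the course. Glyma03g04910.1 was at 1.79 and 1.43 RPKM at stage 6, against 10.9 and 52.4 RPKM at stage 5 (log2 change -3.28 ± 0.744 SE, limma adjusted p = 0.0379), and after upper quartile scaling its adjusted p was 0.0644. Its stage means were between 38.5 and 92.6 RPKM over stages 1 to 4. Glyma18g52170.1 was at 0.762 and 0.322 RPKM at stage 6, against 21.2 and 5.69 RPKM at stage 5 (-3.00 ± 0.368, limma adjusted p = 0.0225). It had a mean of 58.4 RPKM at stage 1 and 1.26 RPKM at stage 4, so stage 5 was a second high point. The BR1 and BR2 libraries of stage 5 differed several-fold for each of the 4 models, while those of stage 6 differed less. The call of Glyma03g04910.1 was lost without stage 5 BR2, stage 6 BR1 or stage 6 BR2, and that of Glyma18g52170.1 without stage 6 BR2.

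The Rubisco small subunit list held the 2 most abundant models of stage 6, and all 3 tested loci had higher values there, with 0 of 3 called in limma and 3 of 3 higher at an unadjusted p under 0.05, against 3.51% of all tested models. Glyma19g06370.1 was the highest model at stage 6, at 17734 and 16075 RPKM in BR1 and BR2, against 8253 and 9525 RPKM at stage 5 (log2 change 0.93 ± 0.386 SE, limma adjusted p = 0.131). Glyma19g06340.1 followed with 15141 and 13721 RPKM at stage 6, against 7064 and 8145 RPKM at stage 5 (0.93, adjusted p = 0.129). Glyma13g07610.1 was at 8359 and 7545 RPKM at stage 6, against 3300 and 3911 RPKM at stage 5 (1.14, adjusted p = 0.0691). In each of the 3 the stages did not overlap, which held in the upward direction for 8.13% of all tested models. After upper quartile scaling the stages again did not overlap in any of the 3, as held upward for 19.0% of all tested models, and the log2 changes were 1.25 to 1.46, with adjusted p of 0.0759 to 0.119. Under quantile normalization, which gives models of equal rank in different libraries equal values, the log2 change was 0 for Glyma19g06370.1 and Glyma19g06340.1, at the top ranks of all 4 libraries, and 0.20 for Glyma13g07610.1. The 9 models of the 4 listed loci together took 10.2% and 9.11% of all reads at stage 6, against 4.68% and 5.42% at stage 5. Of these, 6 are models of the single locus Glyma19g06340, and a read may be counted for several of them. Glyma19g06340 and Glyma19g06370 kept nearly 1 ratio in all 4 libraries, so their separate values are uncertain. The 4th locus, Glyma19g06390, did not pass the filter.

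Both loci of the Rubisco activase list had higher values at stage 6, with a wide spread between BR numbers. Limma called 0 of 2, and 0 had an unadjusted p under 0.05, against 33.7% of all tested models. Glyma11g34230.2 was at 1933 and 3304 RPKM at stage 6, against 748 and 1383 RPKM at stage 5 (log2 change 1.31 ± 0.766 SE, limma adjusted p = 0.258). Glyma18g04080.1 was at 1357 and 2375 RPKM at stage 6, against 461 and 804 RPKM at stage 5 (1.56 ± 0.826, adjusted p = 0.219). In both stages BR2 was the higher library, and the change was of like size within BR1 and BR2, with list medians of 1.46 and 1.41. With only the 4 libraries in the fit, both activase models were called higher as deposited, while after upper quartile scaling that fit called 0 models.

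Among the fatty acid desaturases, enzymes that place double bonds in fatty acids, the list held the only 2 called list loci, both lower as deposited. They were 2 of 9 tested loci in this list and 2 of 59 over all lists, against 4.21% of all tested models. Glyma14g37350.1, an identifier of the FAD3 type that makes linolenic acid, was at 3.15 and 1.69 RPKM at stage 6, against 7.16 and 4.69 RPKM at stage 5 (log2 change -1.03 ± 0.223 SE, limma adjusted p = 0.0335). Glyma02g39230.1, of the same type, was at 7.02 and 4.10 RPKM at stage 6, against 13.6 and 11.9 RPKM at stage 5 (-1.10 ± 0.275, adjusted p = 0.0418). Neither was called after upper quartile scaling, at log2 changes of -0.82 and -0.84 with adjusted p of 0.0848 and 0.106. Both calls were also lost without stage 6 BR2, stage 5 BR1 or stage 5 BR2, and both were kept without stage 6 BR1. The 3rd identifier of this type, Glyma18g06950.1, was at 11.8 and 5.51 RPKM at stage 6, against 10.7 and 6.55 RPKM at stage 5. A pair of the stearoyl-ACP type, which makes oleic acid in the plastid, passed on adjusted p but not on fold. They were Glyma02g15600.1, at 15.99 and 10.9 RPKM at stage 6 against 27.2 and 21.1 RPKM at stage 5 (-0.81, adjusted p = 0.0352), and Glyma07g32850.1, at 12.3 and 9.12 RPKM at stage 6 against 21.4 and 15.8 RPKM at stage 5 (-0.74, adjusted p = 0.0478). As deposited, 10.6% of all tested models were lower by adjusted p alone. After upper quartile scaling the log2 changes of this pair were -0.52 and -0.45, with adjusted p of 0.115 and 0.207. Over the 9 tested loci the median log2 change was -0.18 as deposited, against -0.27 over all tested models, and -0.16 after upper quartile scaling, against -0.057. On both scales 6 of the 9 had stage 6 values wholly below stage 5, against 47.5% of all tested models as deposited and 26.9% after scaling. Of those 6, Glyma20g24530.1 and Glyma14g27990.1 were at or below 0.335 RPKM in all 4 libraries. The most abundant locus, Glyma03g30070.1, was at 403 and 203 RPKM at stage 6, against 310 and 285 RPKM at stage 5 (-0.055 as deposited, 0.26 after scaling). Glyma19g32930.1 was at 2.18 and 2.36 RPKM at stage 6, against 1.49 and 2.58 RPKM at stage 5 (0.13 as deposited, 0.37 after scaling). Without any 1 of the 4 compared libraries the list median lay between -0.64 and -0.43.

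The chalcone and isoflavone synthase list, for the first enzyme of flavonoid synthesis and the enzyme that leads into isoflavones, had lower mean values at stage 6 in every locus, with 0 of 10 called in limma and 4 of 10 lower at an unadjusted p under 0.05, against 30.2% of all tested models. Its median log2 change was -1.03 as deposited and -0.73 after upper quartile scaling, with all 10 loci below 0 on both scales, and 9 of the 10 had stage 6 values wholly below stage 5, against 47.5% of all tested models. After scaling 7 of the 10 did, against 26.9%. The median was -1.62 in BR1 and -0.45 in BR2. Without stage 6 BR1 it was -0.40 as deposited and -0.068 after scaling, and without stage 6 BR2 it was -1.64 as deposited. The largest difference was at Glyma01g43880.1, with 17.8 and 9.55 RPKM at stage 6, against 58.3 and 45.4 RPKM at stage 5 (-1.90 ± 0.563 SE, limma adjusted p = 0.0629). Glyma11g01350.2 was close to it, at 14.99 and 7.75 RPKM at stage 6, against 46.6 and 34.6 RPKM at stage 5 (-1.80, adjusted p = 0.0799). Both are identifiers of chalcone synthases outside the cluster on chromosome 8, and both were called lower with only the 4 libraries in the fit and without either stage 7 library. The 4 tested loci of that cluster ran from -1.17 to -1.004, and their difference was larger in BR1 (Glyma08g11620.1 at 14.2 RPKM at stage 6 against 49.9 RPKM at stage 5) than in BR2 (18.3 RPKM at stage 6 against 28.3 RPKM at stage 5). The isoflavone synthase identifier Glyma13g24200.1 was at 28.2 and 29.5 RPKM at stage 6, against 61.5 and 55.2 RPKM at stage 5 (-0.99, adjusted p = 0.122), and Glyma07g32330.1 at 33.9 and 28.1 RPKM at stage 6 against 67.4 and 39.7 RPKM at stage 5 (-0.73, adjusted p = 0.0955). Reads of near-identical chalcone synthase copies may be split or shared, so the separate values are uncertain.

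**Figure D3:**
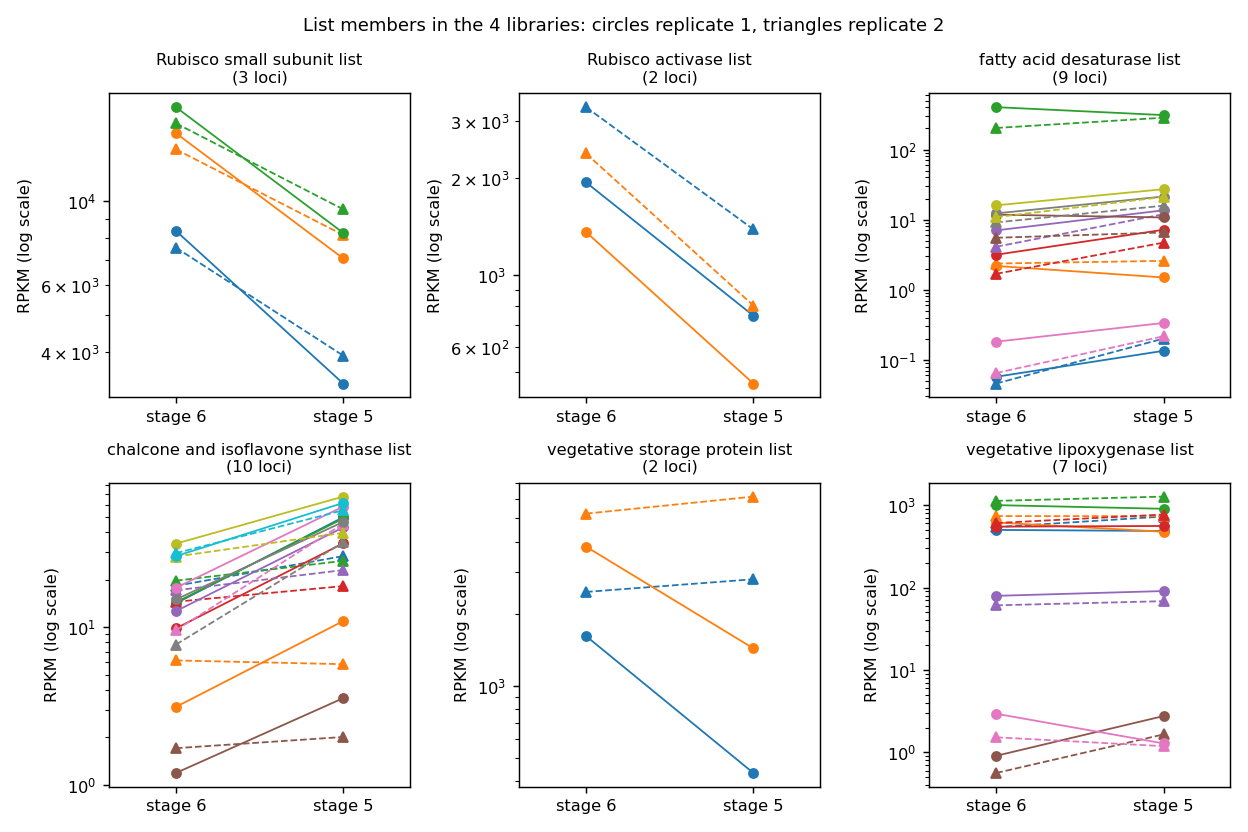
RPKM (log scale) of the tested loci of 6 lists at stage 6 (left) and stage 5 (right), 1 colour per locus, with circles and solid lines for BR1 and triangles and dashed lines for BR2. Every Rubisco small subunit and activase line is higher at stage 6, nearly every chalcone and isoflavone synthase line is lower, and the vegetative storage protein lines cross between BR numbers.

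Vegetative storage proteins, phosphatase-like proteins that young tissue holds as a nitrogen store, were, as deposited, higher at stage 6 in BR1 and lower in BR2 at both loci. Limma called 0 of 2, and 0 had an unadjusted p under 0.05, against 33.7% of all tested models. Glyma08g21410.1 was at 3810 and 5234 RPKM in BR1 and BR2 at stage 6, against 1433 and 6166 RPKM at stage 5 (log2 change 0.59 ± 0.733 SE, limma adjusted p = 0.596). Glyma07g01730.1 was at 1613 and 2465 RPKM at stage 6, against 432 and 2785 RPKM at stage 5 (0.86 ± 0.612, adjusted p = 0.345). In BR1 the list median was 1.65 and in BR2 -0.21, and the stages overlapped. Once scaled to the upper quartile, both loci were higher in BR2 as well, by 0.13 and 0.19 on the log2 scale, with changes over both BR numbers of 0.91 and 1.18 (adjusted p of 0.477 and 0.274). Without stage 6 BR1 the list median was -0.19 as deposited.

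The vegetative lipoxygenases, which oxidise polyunsaturated fatty acids, gave 0 called loci of 7 tested in limma, against 4.61% of all tested models. In the same fit 1 of the 7 had an unadjusted p under 0.05, against 33.7% of all tested models. The 4 abundant loci on chromosomes 13 and 15 lay between 501 and 1129 RPKM at stage 6, against 476 to 1272 RPKM at stage 5 across libraries, with log2 changes from -0.19 to 0.19 as deposited and 0.13 to 0.51 after upper quartile scaling. Their direction therefore turned with the scaling for 3 of the 4. The median of the 7 was -0.18 as deposited, 0.14 after scaling and -0.60 under quantile normalization. As deposited it was 0.24 without stage 5 BR1 and 0.43 without stage 6 BR2. It was -0.51 without stage 5 BR2 and -0.55 without stage 6 BR1. The lowest log2 change of the list was that of Glyma08g20190.1, at 0.909 and 0.563 RPKM at stage 6, against 2.76 and 1.65 RPKM at stage 5 (-0.87, limma adjusted p = 0.110). The highest was that of Glyma08g20230.1, at 2.95 and 1.53 RPKM at stage 6, against 1.29 and 1.19 RPKM at stage 5 (0.50, limma adjusted p = 0.278). After scaling it was 0.73. The other 4 listed loci did not pass the filter.

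RNAs of the storage and embryo lists were at or below 16.4 RPKM in all 4 libraries. The 5 glycinin loci, of a main storage globulin family, lay at 0.0854 to 4.62 RPKM at stage 6, against 0.106 to 6.52 RPKM at stage 5, with log2 changes of -0.67 to -0.16 and a median of -0.32. The lowest log2 change of them was that of Glyma03g32030.1, which was at 1.31 and 3.20 RPKM at stage 6, against 2.25 and 6.52 RPKM at stage 5 (limma adjusted p = 0.253). The 5 loci of beta-conglycinin, the other main storage globulin, had log2 changes of -0.58 to -0.10, and the lowest was Glyma10g39150.1, at 0.512 and 0.702 RPKM at stage 6, against 1.01 and 1.87 RPKM at stage 5 (adjusted p = 0.103). The medians were -0.27 for 3 seed lipoxygenases, -0.61 for 5 lectin and Kunitz trypsin inhibitor loci, and -0.20 for the 2 tested loci of the LEC1 and ABI3 list, regulators of embryo maturation. The P34 thiol protease locus had a log2 change of -0.26. Over all tested models the median was -0.27 as deposited and -0.057 after upper quartile scaling. The beta-conglycinin median was -0.48 as deposited. After scaling the list medians were -0.20 for glycinin, -0.21 for beta-conglycinin, -0.28 for seed lipoxygenases and -0.47 for lectin and Kunitz inhibitors. They were -0.18 for LEC1 and ABI3 and -0.12 for P34, and the highest lectin and Kunitz locus was at 0.23. As deposited and without stage 5 BR2, the direction turned for 3 of these lists, to 0.013 for lectin and Kunitz inhibitors, 0.19 for LEC1 and ABI3 and 0.22 for P34. Limma called 0 of these 21 loci, against 4.61% of all tested models. Of the 21, 1 had an unadjusted p under 0.05, against 33.7% of all tested models. At values near 1 RPKM the added 1 holds log2 changes down. The pairs Glyma20g28460 with Glyma20g28640 and Glyma20g28650 with Glyma20g28660 had nearly the same values in all 4 libraries, so their separate values are uncertain.

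The phytochromes, red and far-red light receptors, had small differences, with log2 changes of -0.23 to 0.14 as deposited. Limma called 0 of 5 tested loci, and 0 had an unadjusted p under 0.05, against 33.7% of all tested models. After upper quartile scaling all 5 were above 0, at 0.058 to 0.39, so their direction turned with the scaling for 2 of them. As deposited the list median of 0.025 was -0.037 without stage 5 BR2 and -0.30 without stage 6 BR2. It was 0.063 without stage 5 BR1 and 0.33 without stage 6 BR1. Glyma20g22160.1, the most abundant, was at 56.3 and 73.0 RPKM at stage 6, against 68.8 and 57.6 RPKM at stage 5 (adjusted p = 0.956 in limma), and the stages overlapped. Over all 13 lists, 0 of 59 loci were called higher and 2 lower as deposited, and 0 either way after upper quartile scaling, against 0.405%, 4.21% and 1.58% of all tested models.

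The number of called models depended on single libraries and on the fit. Without the stage 6 BR2 library 0 models were called (8088 at an unadjusted p under 0.05), without stage 6 BR1 3042 were, without stage 5 BR1 481 and without stage 5 BR2 404. With all 14 libraries in the fit, where the replicates of stage 1 differed with an SD of 1.10 in log2 against 0.437 to 0.531 at the other stages, limma called 0 (6638 at an unadjusted p under 0.05). With no BR block it called 11. After upper quartile scaling the count was 3 without stage 6 BR2, 1907 without stage 6 BR1, 234 without stage 5 BR1 and 36 without stage 5 BR2.

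**Figure D4:**
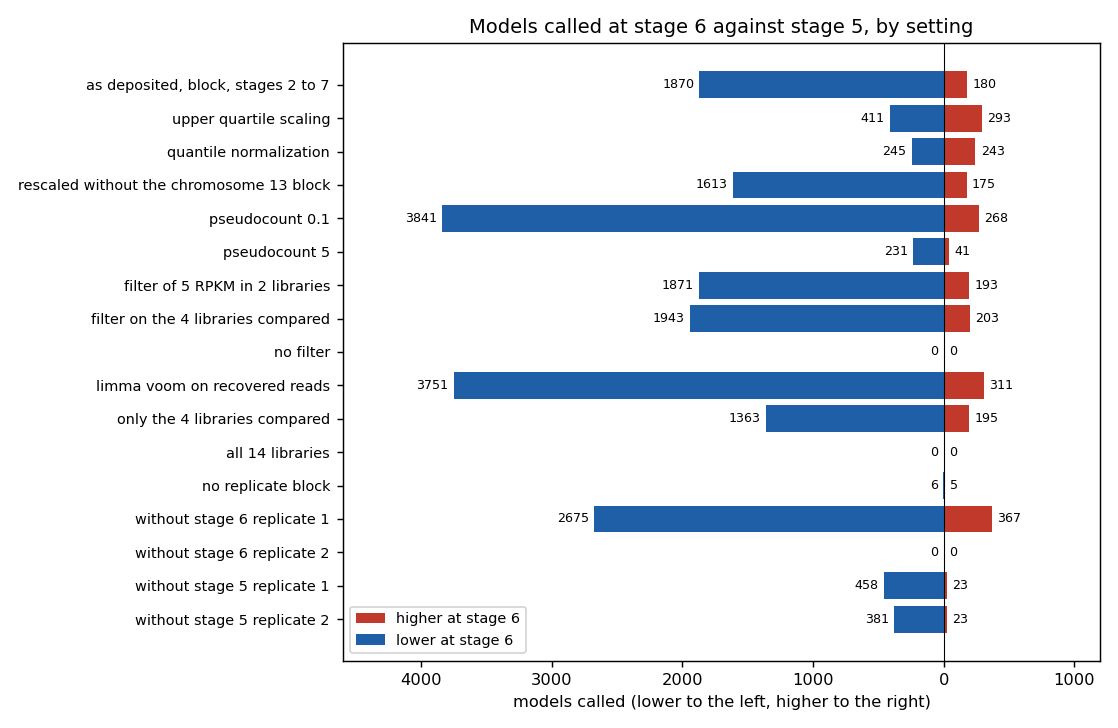
Models called lower (blue, to the left) and higher (red, to the right) at stage 6 in limma, for the fit as described in the top row and for the same fit with one setting changed in each row below. The lower calls run from 0 to 3841 and the higher calls from 0 to 367 over these settings.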

How the data were processed

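The authors deposited RPKM for 78773 models in each library, per the file headers. The submitters' processing notes name Bowtie. Its version and role, the genome build, the annotation, strandedness and the handling of reads that match several models were not given in the sources used here. RPKM values were whole multiples of 1 read for 67016 of 67016 models above 0 in at least 2 libraries (100%, within 0.003 reads or 1e-08 of the read number), which gave read totals and model lengths. Depth was 83.9 M to 131 M read assignments per library.

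Tested were models that reached 1 RPKM in 2 or more of the 14 libraries, with limma 3.58.1 (R 4.3.3, statmod 1.5.0) on log2(RPKM + 1), with stage means, a BR block, 5 residual degrees of freedom, a mean-variance trend and robust moderation, two-sided. Stage 1 was left out because its replicates stood apart. Deviations of same-numbered libraries correlated at 0.149 to 0.602 across models over the 15 pairs of stages 2 to 7 (0.376 for stages 6 and 5), so BR numbers were taken to pair the libraries. The fit was tested on data simulated with its own BR block and residual spread, which cannot judge the choice of block or scaling.

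Only some of the tested list members are named with values, often the lowest log2 change or the most abundant of a list. List medians and counts cover every tested member. Also named are the 2 largest rises and falls among called models (1 per locus) whose higher stage mean reached 10 RPKM, and the 2 models highest at stage 6. The members, lists and fit were chosen with earlier results of these data known. No sequences are shown.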

Additional observations from a re-analysis of the deposited data

How the results depend on the processing

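Beside 2050 calls (180 higher, 1870 lower), there were 704 (293, 411) under upper quartile scaling, 488 (245 lower) under quantile normalization, 4109 (3841 lower) with a pseudocount of 0.1, 272 (41, 231) with a pseudocount of 5, 4062 (311, 3751) in limma voom on recovered reads, 5140 (424, 4716) with no fold threshold, and 0 with no filter (17243 at an unadjusted p under 0.05) or with all 14 libraries. With no replicate block there were 11 calls (5, 6). Rescaling without the chromosome 13 run, the filters of 5 RPKM or on the 4 libraries, and a fit of only those 4 kept each count within 1.5 times. The models called were not all the same. The fit of only the 4 libraries called 61.7% of the 180 higher and 60.4% of the 1870 lower models again. Leaving out 1 library gave 0 to 3042 calls, 0 to 367 higher and 0 to 2675 lower. The higher calls were 118 without either stage 2 library. The median change of all models, -0.27, was -0.057 under upper quartile scaling, 0.0035 under quantile normalization, -0.38 and -0.12 with pseudocounts of 0.1 and 5, -0.11 with no filter, -0.33 with the filter of 5 RPKM, -0.40 in voom, and -0.32 to -0.24 with 1 library left out.

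Settings added after seeing the data joined upper quartile scaling (median -0.057) with another choice. There were 59 calls (40, 19) with no block, 0 with only the 4 libraries (9956 at an unadjusted p under 0.05), 2 (2, 0) with all 14, and with 1 compared library left out 234 (35, 199; median -0.055) lacking stage 5 BR1, 36 (5, 31; -0.054) lacking stage 5 BR2, 1907 (770, 1137; -0.091) lacking stage 6 BR1 and 3 (3, 0; -0.038) lacking stage 6 BR2.

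Over the 22 models followed through the settings, 571 of 680 values kept their direction and side of the threshold, 93 lost the call, 11 gained it, 2 were at 0 (Glyma19g06370.1 and Glyma19g06340.1 under quantile normalization) and 3 reversed. Only models called in the fit as described could lose a call. Of 31 settings, Glyma02g39230.1 lost it in 22, Glyma03g04910.1 in 20, and Glyma10g12370.1 and Glyma14g37350.1 in 18 each. Glyma18g52170.1 lost it in 8 and Glyma0466s00200.1 in 7. The other followed models were not called there, so for them keeping their side meant staying uncalled. The 3 reversed values were of Glyma08g21410.1, at -0.094 under quantile normalization, and without stage 6 replicate 1 at -0.43 as deposited and -0.079 after upper quartile scaling. With 1 library left out it ran from -0.43 to 1.61. The cause was not tested. The deposited values are RPKM, and the edgeR and DESeq2 alternatives were not run. Limma voom was the only fit on the recovered reads. With 2 libraries per stage, the calls rest on a spread shared over stages 2 to 7.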
